A study of Mus musculus with 6 samples.

Results

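The 9 genes described here act in the sensing of viral RNA or interferon and in the signalling that follows. Among them are the receptor genes Ifnar1 and Ifnar2, the receptor-bound kinases Jak1 and Tyk2, and the transcription factors Stat2, Irf9 and Irf7. The 9 genes also include the sensors of viral RNA Ddx58 (encoding RIG-I) and Ifih1 (encoding MDA5). They were taken by name from the gene rows of the count matrices, and all 9 were found among 31053 rows. The counts came from HB9::GFP mouse embryonic stem cells, whose motor neurons carry a fluorescent reporter, grown into embryoid bodies and profiled at day 6 of motor neuron differentiation with a droplet 3' RNA assay. The 6 libraries were 2 of wild-type cells (WT), 2 of lncMN2_SP-/- cells (DeltaSP) and 2 of lncMN2-/- cells (KO), both edits made with CRISPR/Cas9 at the lncMN2 locus. Each library was 1 clone, so that genotype cannot be told apart from clone, and every cell, WT included, carried the HB9::GFP reporter. The question asked of these libraries was how loss of the locus, or of part of it, changed the differentiating cells.

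A type I interferon binds a receptor made of IFNAR1 and IFNAR2, which activates TYK2 and JAK1; these phosphorylate STAT2, which acts with IRF9 in a complex that binds a DNA element known as the ISRE. RIG-I and MDA5 recognise double-stranded RNA in the cytoplasm and, through the adaptor MAVS, activate IRF3 and IRF7, which switch on interferon genes. Irf7, Irf9, Stat2, Ddx58 and Ifih1 are themselves known targets of the pathway, whereas the receptor and kinase genes are expressed broadly.

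Kept cells numbered 16225 of 24215 barcodes, between 1612 and 4499 per library, and the unique molecular identifiers (UMIs, or RNA molecules counted once each) summed over them came to between 20318500 and 47927845. WT 1 stood apart as the shallowest library: its median cell held 4157 UMIs, and that of each other library 11898.5 to 15112. Most of its progenitor-like and neuron-like cells fell into clusters that the other libraries hardly filled. Library pairs shared between 3 and 11 cell barcodes. The long non-coding RNA 5330434G04Rik, whose annotated span holds Mir325, gave 661 and 907 UMIs in WT, 841 and 1066 in DeltaSP, and 4 and 6 in KO. In CPM (UMIs scaled to the library's total) it was at 32.5 and 33.5 in WT, 23.4 and 22.2 in DeltaSP, and 0.133 and 0.191 in KO. Relative to depth, both DeltaSP libraries thus lay below both WT libraries. Neural identity was plain: Tubb3, a tubulin of neurons, reached 1075 to 1960 CPM in the 6 libraries, and Olig2, a motor neuron progenitor factor, 164 to 302.

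The promoters of 4 members are shown because they separate members with and without the ISRE core, which is GAAA, any 2 bases and GAAA again, searched on both strands. Each run covers 250 bases before and 50 after a transcription start in the RefSeq annotation of GRCm38.p6 (the mm10 assembly), printed 5′ to 3′ in the direction of the gene, with the ISRE core in capitals.
Stat2, chr10:128270248-128270547, plus strand: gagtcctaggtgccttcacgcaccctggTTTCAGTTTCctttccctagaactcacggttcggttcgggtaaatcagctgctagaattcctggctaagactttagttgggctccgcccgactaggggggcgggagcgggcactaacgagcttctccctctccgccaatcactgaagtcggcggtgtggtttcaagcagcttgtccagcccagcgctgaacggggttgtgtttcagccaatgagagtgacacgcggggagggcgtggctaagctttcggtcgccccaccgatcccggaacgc
Ddx58, chr4:40239776-40240075, minus strand: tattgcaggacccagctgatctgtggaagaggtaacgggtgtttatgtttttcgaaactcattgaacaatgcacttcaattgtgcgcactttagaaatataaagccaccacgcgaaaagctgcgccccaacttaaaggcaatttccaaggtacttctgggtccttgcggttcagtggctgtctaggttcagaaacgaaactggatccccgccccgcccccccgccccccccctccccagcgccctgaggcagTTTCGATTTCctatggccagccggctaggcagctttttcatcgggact
Ifih1, chr2:62646206-62646505, minus strand: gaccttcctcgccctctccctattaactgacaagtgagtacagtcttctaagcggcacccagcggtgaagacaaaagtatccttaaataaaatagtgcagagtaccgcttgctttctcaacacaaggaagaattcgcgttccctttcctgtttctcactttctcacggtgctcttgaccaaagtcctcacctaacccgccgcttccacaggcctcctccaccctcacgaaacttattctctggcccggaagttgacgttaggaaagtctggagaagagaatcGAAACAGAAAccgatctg
Irf7, chr7:141266375-141266674, minus strand: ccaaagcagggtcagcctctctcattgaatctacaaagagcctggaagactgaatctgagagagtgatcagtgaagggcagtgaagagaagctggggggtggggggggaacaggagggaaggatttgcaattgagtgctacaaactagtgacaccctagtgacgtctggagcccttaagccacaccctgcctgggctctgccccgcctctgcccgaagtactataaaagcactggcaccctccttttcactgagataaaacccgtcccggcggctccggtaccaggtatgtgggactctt
The core lay in 3 of the 9 members, once in each. Its first base was at position -222 from the start site in Stat2, 2 in Ddx58 and 32 in Ifih1, and it read in the reverse direction in Stat2 and Ddx58 and in the direction of the gene in Ifih1. Of all 32851 annotated windows of 300 bases, 3.44% held the core. The window of Irf7 had none, and neither did those of Ifnar1, Ifnar2, Jak1, Tyk2 or either window of Irf9. The palindromic GAS motif TTCNNNGAA, a site type of interferon-responsive genes, was found in the windows of Ifnar1 and Ifnar2 and in 8.30% of all windows.

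Ifnar1 (ENSMUSG00000022967, mm10 chromosome 16, 91485238 to 91507441, plus strand), the receptor chain that anchors TYK2, was measured at much the same level in every library. Its UMIs numbered 362 and 585 in WT, 954 and 990 in DeltaSP, and 775 and 874 in KO. After TMM scaling these were 20.5 and 22.4 CPM in WT, 25.5 and 21.6 in DeltaSP, and 24.1 and 24.8 in KO. The values of WT and DeltaSP overlapped, and those of KO lay slightly above WT. The fitted log2 difference from WT was 0.19 ± 0.15 (SE) in KO and 0.13 ± 0.15 in DeltaSP, with adjusted p = 0.435 and 0.675 in edgeR's quasi-likelihood test. In such sums over all cells, a change in the mix of cells and a change in the level per cell cannot be told apart, and the test measures only the spread between the libraries.

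Ifnar2 (chromosome 16, 91372783 to 91405589, plus strand), the chain that binds interferon most tightly and anchors JAK1, was highest in KO. Its levels were 13.4 and 18.3 CPM in WT, 20.2 and 16.4 in DeltaSP, and 24.9 and 26.1 in KO. The KO libraries lay above the other 4, while WT and DeltaSP overlapped. The KO to WT log2 difference of 0.68 ± 0.20 did not pass (edgeR adjusted p = 0.0726), nor did that of DeltaSP, 0.21 ± 0.20 (adjusted p = 0.605).

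The kinases differed little over all cells. Jak1 (chromosome 4, 101152367 to 101265282, minus strand) was at 29.3 and 30.6 CPM in WT, 28.5 and 28.5 in DeltaSP, and 25.4 and 26.5 in KO. Tyk2 (chromosome 9, 21104068 to 21131243, minus strand) was at 5.72 and 7.86 CPM in WT, 8.65 and 7.31 in DeltaSP, and 8.68 and 10.9 in KO. For Jak1 both KO libraries lay below WT, and for Tyk2 both lay above it. The log2 differences between KO and WT were -0.21 ± 0.13 for Jak1 and 0.52 ± 0.23 for Tyk2, with edgeR adjusted p = 0.316 and 0.184. Raver2 and 1700084C06Rik, which overlap Jak1 and Tyk2 on the other strand, did not pass either.

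Stat2 (chromosome 10, 128270559 to 128292849, plus strand), a transcription factor of the signalling complex, was at 5.15 and 5.64 CPM in WT, 9.02 and 7.61 in DeltaSP, and 4.98 and 8.12 in KO. DeltaSP lay above WT in both libraries, and the KO libraries fell on either side of WT. The log2 differences from WT were 0.62 ± 0.27 in DeltaSP and 0.28 ± 0.27 in KO (edgeR adjusted p = 0.301 and 0.53).

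Irf9 (chromosome 14, 55603571 to 55610030, plus strand), the DNA-binding subunit of that complex, gave 101 and 106 UMIs in WT, 703 and 670 in DeltaSP, and 163 and 421 in KO. The levels were 5.72 and 4.06 CPM in WT, 18.8 and 14.6 in DeltaSP, and 5.07 and 11.96 in KO. DeltaSP stood clear of WT, whereas KO 1 sat within the WT range and KO 2 near DeltaSP. The log2 differences from WT were 1.78 ± 0.40 in DeltaSP and 0.81 ± 0.40 in KO, which did not pass (edgeR adjusted p = 0.154 and 0.222). Irf9 overlaps Rnf31 on the same strand, so reads of the pair could have been assigned to either; Rnf31 had log2 differences of 0.91 ± 0.20 in DeltaSP and 0.70 ± 0.20 in KO (edgeR adjusted p = 0.151 and 0.0698).

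Irf7 (chromosome 7, 141262706 to 141266481, minus strand), known for amplifying interferon production, was nearly absent from WT, with 4 and 6 UMIs. It gave 373 and 315 UMIs in DeltaSP and 27 and 142 in KO. On the CPM scale these were 0.227 and 0.230 in WT, 9.95 and 6.87 in DeltaSP, and 0.840 and 4.03 in KO. All 4 edited libraries lay above both WT libraries, and the KO libraries differed from each other more than the DeltaSP libraries did. The log2 difference was 5.18 ± 0.82 in DeltaSP and 3.40 ± 0.84 in KO, and both missed the threshold (edgeR adjusted p = 0.0694 and 0.0533). Phrf1, which overlaps Irf7 on the other strand, had log2 differences of -0.01 ± 0.19 and -0.06 ± 0.19.

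Ddx58 (chromosome 4, 40203773 to 40239828, minus strand) rose in both edited genotypes. Its UMIs numbered 26 and 32 in WT, 371 and 366 in DeltaSP, and 98 and 183 in KO, which gave 1.35 ± 0.17 CPM in WT, 8.94 ± 1.35 in DeltaSP and 4.12 ± 1.52 in KO (mean ± SD, n = 2 each). The 3 genotypes did not overlap. The log2 difference from WT was 2.73 ± 0.34 in DeltaSP and 1.62 ± 0.34 in KO, or 6.65-fold and 3.08-fold (edgeR adjusted p = 0.0411 and 0.0395).

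Ifih1 (chromosome 2, 62595798 to 62646255, minus strand) rose in both as well, from 3 and 8 UMIs in WT to 154 and 144 in DeltaSP and 34 and 76 in KO. These were 0.238 ± 0.097 CPM in WT, 3.63 ± 0.68 in DeltaSP and 1.61 ± 0.78 in KO (n = 2 each). Again no 2 genotypes overlapped. The log2 difference was 3.85 ± 0.52 in DeltaSP and 2.68 ± 0.54 in KO, or 14.4-fold and 6.43-fold (edgeR adjusted p = 0.047 and 0.0374).

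**Figure D1:**
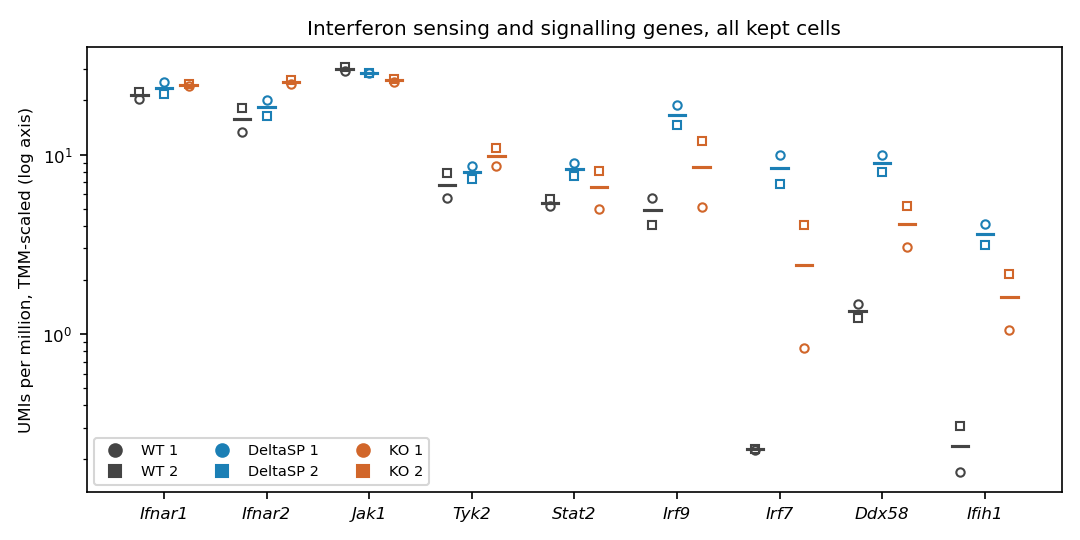
TMM-scaled CPM of the 9 genes over all kept cells (log axis); each point is 1 library and each bar the mean of a genotype (n = 2). The receptor and kinase genes lie close together, and Irf7, Ddx58 and Ifih1 lie lowest in WT, highest in DeltaSP and between them in KO.

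Thus 2 of 9 members, the RNA sensors, passed as higher in KO, where 2.81% of 14900 tested genes did, and the same pair passed in DeltaSP, where 0.289% did. None passed as lower, as 4.71% of all genes did in KO and 0.0671% in DeltaSP. Both KO libraries lay above both WT libraries for 6 members (30.1% of all genes did), and both DeltaSP libraries for 5 (24.9% of all genes). The median log2 difference of the members was 0.68 in KO and 0.62 in DeltaSP, against 0.00 and -0.01 over all tested genes. Both comparisons share the WT libraries. Without WT 1, DeltaSP 1 or DeltaSP 2, 0 members passed in either comparison. In KO 0 passed without KO 2, Irf7 alone without KO 1, and Ifnar2 and Ifih1 without WT 2. In all, 53 genes were called in DeltaSP and 1121 in KO.

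KO and DeltaSP were also set against each other, to ask whether the edits differed. Irf9, Irf7, Ddx58 and Ifih1 had lower values in KO, by log2 differences of -0.97 ± 0.38, -1.78 ± 0.60, -1.11 ± 0.30 and -1.16 ± 0.41, and Ifnar2 a higher one by 0.48 ± 0.19. No member passed in edgeR (adjusted p = 0.844 to 0.994, 5 members at an unadjusted p under 0.05), where 0.00671% of genes passed and 5.46% had such a p, nor in the DESeq2 Wald test, where 0.342% of genes did.

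**Figure D2:**
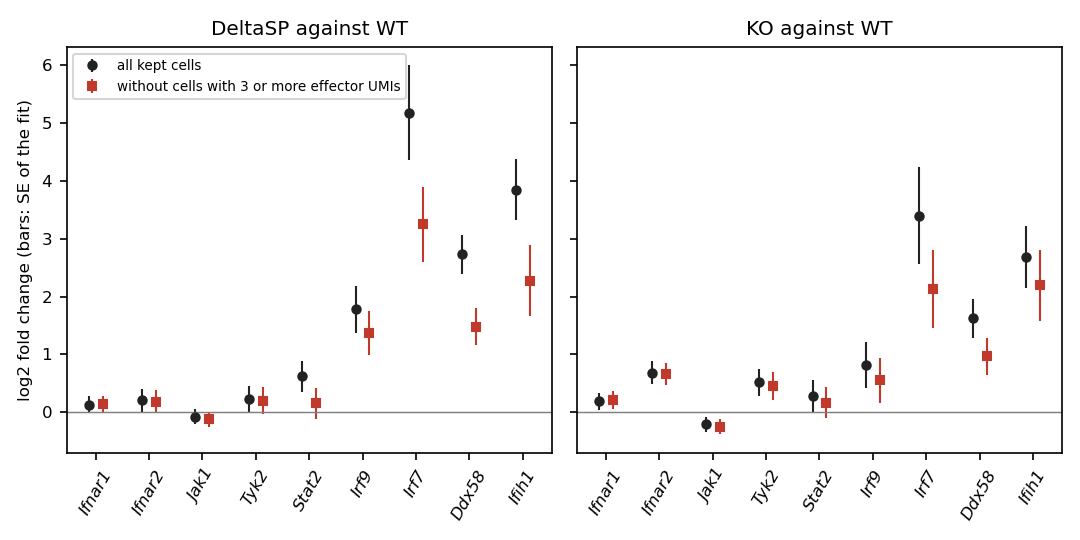
Log2 difference from WT (± SE of the edgeR fit) for each gene in DeltaSP and KO, over all kept cells (circles) and without cells holding 3 or more UMIs of interferon-induced effector genes (squares). Over all kept cells Irf9, Irf7, Ddx58 and Ifih1 lie highest in both genotypes. Each of them lies lower without the cells holding 3 or more effector UMIs.

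The other genes of the pathway moved upward where they passed. Among 8 negative regulators, Usp18, which displaces JAK1 from the receptor, rose by 5.51 ± 0.72 on the log2 scale in DeltaSP and 3.38 ± 0.71 in KO, and Socs1, an inhibitor of the kinases, by 1.67 ± 0.22 and 1.08 ± 0.23; Socs3 passed in KO alone. Of 15 other sensors and adaptors, Trim25, the ubiquitin ligase of RIG-I, rose by 2.45 ± 0.33 in DeltaSP and 1.89 ± 0.33 in KO, and Eif2ak2, the kinase PKR, by 1.79 ± 0.26 and 1.15 ± 0.26; Ticam1, the adaptor of TLR3, passed in KO. Of 6 other Irf genes only Irf1 passed, with 2.04 and 3.30 CPM in WT, 8.75 and 10.6 in DeltaSP and 10.1 and 10.2 in KO. Of 7 other kinase and Stat genes, Stat6 passed in KO and none in DeltaSP. Of the 3 tested receptor genes for other ligands, Ifngr1, Ifngr2 and Il10rb, none passed.

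The interferon-induced effectors, the antiviral genes at the pathway's end, passed as higher for 8 of 15 in DeltaSP and 9 of 15 in KO. Rtp4 rose by 6.43 ± 0.74 and 4.71 ± 0.74 on the log2 scale, Oasl2 by 5.60 ± 0.63 and 3.83 ± 0.63, and Ifit1 by 6.09 ± 0.77 and 3.79 ± 0.80. Oasl2, Xaf1, Rtp4, Parp14, Ifit1, Ifit3 and Ifit3b passed in both genotypes, and Oas1a and Herc6 in KO. Isg15 rose by 4.46 ± 0.52 in DeltaSP, and in KO its difference of 1.98 ± 0.50 did not pass (edgeR adjusted p = 0.0552). No gene of these lists passed as lower, and none passed between KO and DeltaSP.

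UMIs of 19 of these effector genes were summed in each cell, without any member among them, to see in which cells the members lay. Cells with 3 or more such UMIs, called effector cells here, made up 0.111% and 0.807% of WT cells, 17.1% and 11.5% of DeltaSP cells, and 2.96% and 8.95% of KO cells. Each edited library exceeded both WT libraries, and the exact 95% Clopper-Pearson intervals of WT 2 (0.430% to 1.38%) and KO 1 (2.28% to 3.77%) did not meet. The mean difference from WT was 13.8 percentage points in DeltaSP and 5.50 in KO; an exact permutation test over libraries (two-sided) gave p = 0.3333 for each, the smallest that 2 against 2 libraries allow. The KO difference was 8.49 without KO 1 and 2.50 without KO 2. Intervals here cover counting error only. With every cell thinned to 3000 UMIs the shares were 0.140% and 0.0662% in WT, 6.61% and 4.65% in DeltaSP, and 0.627% and 2.50% in KO. The intervals of WT 2 (0.0017% to 0.368%) and KO 1 (0.334% to 1.07%) then met. Cells of a small pluripotent- or germ-like class, of 8 and 9 cells in WT, made up 4 of the 13 effector cells of WT 2, 10 of 390 and 62 of 413 in DeltaSP, and 30 of 63 and 35 of 188 in KO. Over all cells the 5 tested marker genes of that class had a median log2 difference from WT of 2.79 in DeltaSP and 2.88 in KO, where none passed, and 7 of 16 neuron markers passed as lower in KO. The part of this cell mix in the shares was not tested.

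The members divided by how they lay in these cells. Effector cells held 21.3% and 14.9% of all UMIs of DeltaSP, and 3.65% and 11.7% of those of KO. They held 79.6% and 77.1% of the Irf7 UMIs in DeltaSP and 44.4% and 66.2% in KO. For Ddx58 the shares were 72.2%, 61.7%, 34.7% and 50.3%, in the same order. For Ifih1 they were 81.2% and 78.5% in DeltaSP, 17 of 34 UMIs in KO 1 and 53.9% in KO 2. These 3 genes lay mostly in the effector cells of DeltaSP, while Irf9, at 41.4%, 39.0%, 16.0% and 29.9%, and Stat2, at 48.5%, 35.0%, 11.9% and 21.0%, lay there less. Ifnar1, with 21.8%, 15.2%, 4.39% and 9.95%, followed the share of all UMIs. Ifnar2 lay above it in each edited library, with 23.5%, 16.9%, 5.63% and 13.5%. So did Tyk2, at 21.9%, 18.2%, 7.53% and 16.7%, and Jak1, at 24.6%, 18.7%, 6.13% and 15.8%.

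**Figure D3:**
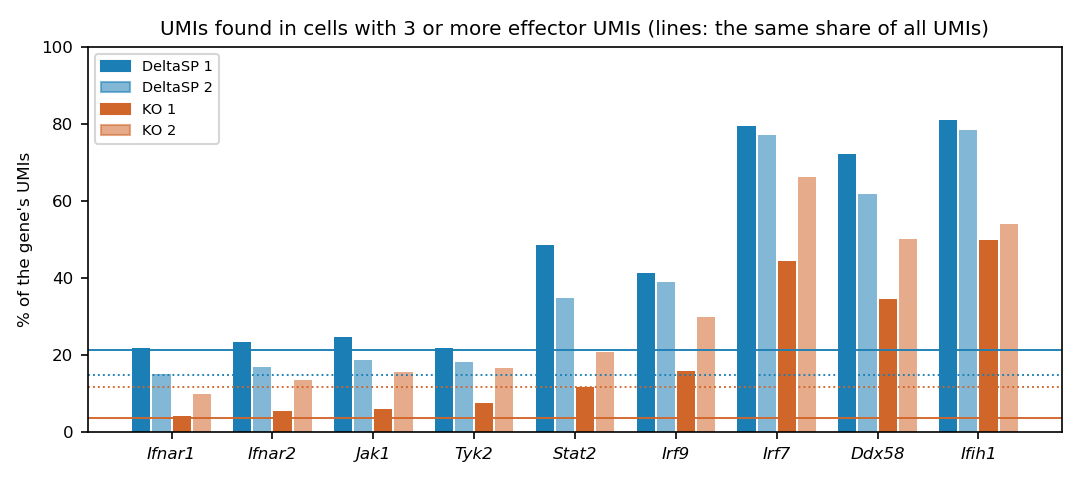
Percent of each gene's UMIs that lay in cells with 3 or more effector UMIs, in the 4 edited libraries (bars), with the percent of all UMIs in those cells as a line per library. Irf7, Ddx58 and Ifih1 stand far above the lines, Stat2 and Irf9 above them, and Ifnar1 at or near them.

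Within each edited library the level of 5 members followed the effector UMIs of the cell. Between cells with none and cells with 10 or more, Irf7 went from 1.59 to 68.8 CPM in DeltaSP 1, from 1.37 to 61.6 in DeltaSP 2, from 0.490 to 31.1 in KO 1 and from 1.66 to 47.8 in KO 2. Irf9 went from 11.98 to 53.5, from 8.45 to 39.9, from 4.41 to 23.3 and from 9.98 to 39.5 CPM. Both factors were thus higher in effector-rich cells of every edited library. Ddx58 went from 2.69 to 59.4, from 2.51 to 49.0, from 1.71 to 58.3 and from 2.89 to 37.2 CPM. Ifih1 went from 0.769 to 28.5, from 0.424 to 29.7, from 0.531 to 31.1 and from 1.22 to 22.0 CPM. In cells with 10 or more effector UMIs, the KO 1 values of Ddx58 and Ifih1 rest on 15 and 8 UMIs. Those of DeltaSP 1 rest on 202 and 97. Stat2 went from 5.88 to 35.9, from 5.35 to 24.5, from 4.57 to 19.4 and from 8.26 to 19.0 CPM. Ifnar1 had 26.7 and 27.0 CPM at the ends of the same range in DeltaSP 1, and 28.9 and 24.3 in KO 2. The other receptor and kinase genes were mixed. Jak1 went from 27.2 to 38.8, from 25.1 to 31.5, from 25.1 to 23.3 and from 27.4 to 35.7 CPM. Tyk2 went from 8.63 to 7.64, from 6.75 to 9.09, from 8.65 to 19.4 and from 11.4 to 15.9 CPM, with 5 UMIs at the upper end in KO 1. Ifnar2 was higher at the upper end in each edited library except KO 1. The cells with 10 or more effector UMIs numbered 171 in each DeltaSP library, 14 in KO 1 and 65 in KO 2, against 3 and 2 in WT. In cells with no effector UMI, Irf9 was at 4.86 and 3.67 CPM in WT and at 11.98 and 8.45 in DeltaSP, so that its higher level there was not limited to effector cells; KO 1, at 4.41, lay within the WT range and KO 2, at 9.98, above it. In the same cells of WT, Irf7 was at 0.152 and 0.175 CPM, Ddx58 at 1.06 and 1.05, and Ifih1 at 0.101 and 0.218, below each edited library. The Irf7 and Ifih1 values rest on 2 to 5 UMIs per WT library.

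**Figure D4:**
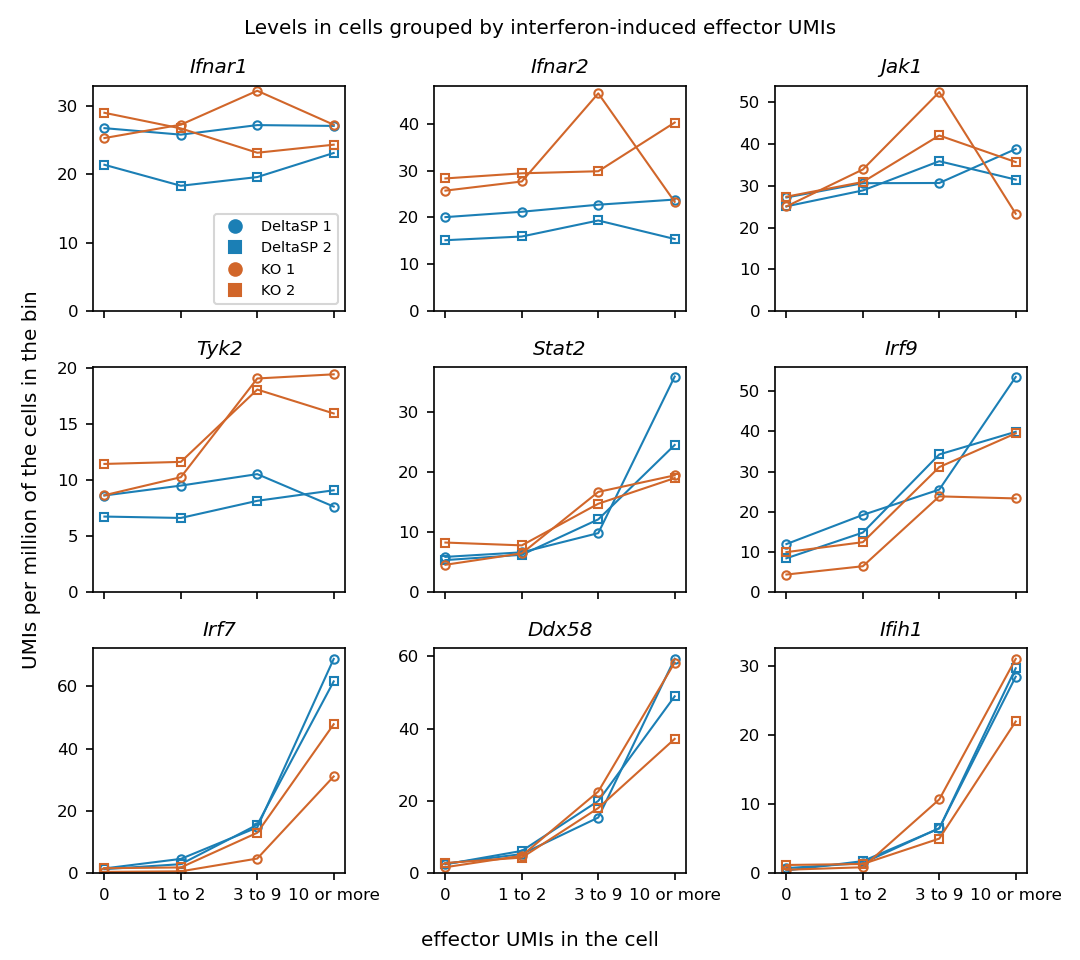
CPM of each gene in cells grouped by their summed effector UMIs, for the 4 edited libraries (1 line each). Stat2, Irf9, Irf7, Ddx58 and Ifih1 rise from the first to the last group in every library, and Ifnar1 stays between 18.3 and 32.2 CPM.

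Without the effector cells the differences were smaller, and no member passed, where 2 of 14608 genes passed in DeltaSP and 748 in KO. For DeltaSP against WT the log2 difference was 3.25 ± 0.65 for Irf7, 1.47 ± 0.32 for Ddx58, 2.28 ± 0.61 for Ifih1, 1.36 ± 0.38 for Irf9 and 0.16 ± 0.27 for Stat2 (edgeR adjusted p = 0.20 to 0.818). For KO against WT these were 2.13 ± 0.68, 0.97 ± 0.32, 2.19 ± 0.61, 0.55 ± 0.38 and 0.17 ± 0.27 (edgeR adjusted p = 0.0746 to 0.724).

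Irf7 was found in few cells. At least 1 Irf7 UMI was found in 0.0889% and 0.372% of WT cells, 8.50% and 4.94% of DeltaSP cells, and 1.13% and 4.24% of KO cells. At 3000 UMIs per cell these were 0.0561% and 0.0662%, 2.80% and 1.23%, and 0.145% and 1.201%. KO 1 thus lay far below KO 2, and above WT by a margin that rested on 3 cells after thinning. No class of these cells is known to lack Irf7, so the share that free RNA gives was not measured, and the WT shares are the only background here. The most Irf7 UMIs in 1 cell were 1 in each WT library, 9 and 18 in DeltaSP, and 3 and 11 in KO.

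The cells were then sorted into classes by marker genes, from clusters made without any interferon gene of these lists, to see which differentiating cells held the members. Levels by class are plain CPM and descriptions only. Progenitor-like cells of WT lay mostly in different clusters in WT 1 and in the other libraries, and so did neuron-like and precursor-like cells. The progenitor-like class also took in a cluster of 124 cells led by the interferon-induced Gbp3, Igtp and Irgm1, which held 2.85% and 1.11% of DeltaSP cells, 0.14% and 0.76% of KO cells and none of WT.

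Irf7 UMIs were found in each named class of both edited genotypes. In progenitor-like cells its UMIs numbered 0 and 0 in WT, 136 and 76 in DeltaSP, and 5 and 54 in KO. Against the limit set by 3 UMIs per WT library, its mean level was at least 18.3-fold higher in DeltaSP and at least 4.40-fold in KO. The KO mean rested mostly on KO 2, and KO 1 by itself lay near that limit. In neuron-like cells it was at 0.160 and 0.176 CPM in WT, 10.1 and 7.81 in DeltaSP, and 0.964 and 6.05 in KO. Mesoderm-like cells, a small class, had 0 in WT, 5.69 ± 3.32 CPM in DeltaSP and 5.96 ± 5.69 in KO. With 79 and 36 such cells in WT, its 0 is a loose limit and cannot show that Irf7 was absent. In precursor-like cells KO and WT overlapped. Irf7 was there at 1.81 and 0.511 CPM in WT (2 and 1 UMIs) and 0.252 and 1.33 in KO (1 and 6 UMIs). In stress-like cells it was at 0.268 and 0.486 CPM in WT and 0.246 and 1.86 in KO. KO 1 thus lay below both WT libraries in each of these classes, whereas both DeltaSP libraries lay above them.

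Stat2 set progenitor-like and neuron-like cells apart within WT. It was at 1.76 and 1.07 CPM in progenitor-like cells of WT and at 6.88 and 8.46 in neuron-like cells. In DeltaSP progenitor-like cells had 8.40 and 6.37 CPM and neuron-like cells 10.8 and 9.55, and in KO they had 3.41 and 6.48 against 8.07 and 13.5. The log2 difference from WT was 2.23 ± 0.43 in progenitor-like and 0.27 ± 0.25 in neuron-like cells of DeltaSP, and 1.52 ± 0.45 and 0.22 ± 0.26 in KO. The difference between the classes, tested as an interaction with library as a block, was -1.98 ± 0.38 for DeltaSP and -1.35 ± 0.41 for KO, and did not pass (edgeR adjusted p = 0.0815 and 0.133, unadjusted p = 0.000188 and 0.00565). The WT counts in progenitor-like cells were 9 and 6 UMIs.

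Few Ifih1 UMIs lay in neuron-like cells, where they numbered 0 and 0 in WT, 10 and 9 in DeltaSP, and 1 and 3 in KO. These were too few for the test within that class, while progenitor-like cells held 1 and 3, 65 and 39, and 8 and 39. In DeltaSP Ifih1 was at 0.728 ± 0.065 CPM in neuron-like, 5.001 ± 3.082 in progenitor-like and 9.15 ± 0.71 in mesoderm-like cells. The interaction, neuron-like minus progenitor-like, was 2.40 ± 1.83 on the log2 scale for DeltaSP and 2.15 ± 1.85 for KO. It did not pass (edgeR adjusted p = 0.719 and 0.637), and its sign rests on the counts of 0 in neuron-like WT cells. Among effector cells alone, Ifih1 was at 22.8 and 17.4 CPM in the progenitor-like and 3.32 and 4.36 in the neuron-like cells of DeltaSP, and Irf7 at 54.2 and 42.2 against 37.9 and 39.9. The summed effector genes also differed between these cells, with 1309 and 1165 CPM against 398 and 354, and the part of that in the Ifih1 difference was not tested.

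**Figure D5:**
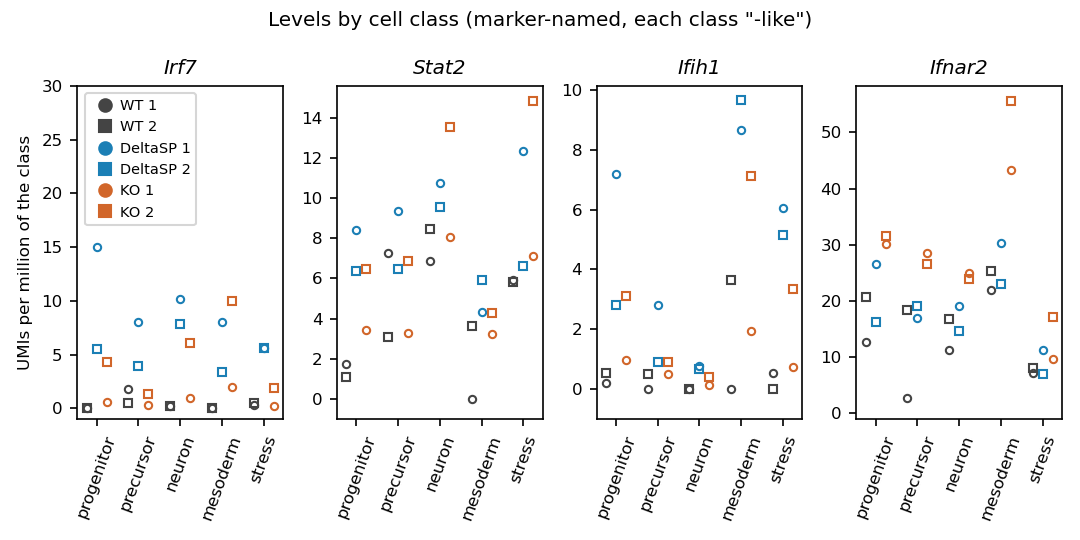
CPM of Irf7, Stat2, Ifih1 and Ifnar2 in 5 marker-named cell classes, 1 point per library. Irf7 is at 1.81 or less in WT in each class shown, Stat2 is lower in the progenitor-like than in the neuron-like cells of WT, Ifih1 is near 0 in neuron-like cells, and Ifnar2 is higher in KO than in WT in each class.

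Ifnar2 was higher in KO than in WT in each class of the plot of levels by cell class. In progenitor-like cells it was at 16.7 ± 5.7 CPM in WT, 21.4 ± 7.3 in DeltaSP and 30.9 ± 1.0 in KO (n = 2 each), and in mesoderm-like cells at 23.7 ± 2.4, 26.6 ± 5.1 and 49.5 ± 8.6. The log2 difference between KO and WT was 0.58 ± 0.25 in progenitor-like and 0.53 ± 0.21 in neuron-like cells, and neither passed (edgeR adjusted p = 0.246 and 0.152).

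Tyk2 in progenitor-like cells was at 2.74 and 4.26 CPM in WT, 8.06 and 4.56 in DeltaSP, and 8.17 and 11.196 in KO. All edited libraries lay above WT, and KO above DeltaSP. The log2 difference between KO and WT was 1.16 ± 0.34 there and 0.33 ± 0.21 in neuron-like cells, and did not pass in either (edgeR adjusted p = 0.115 and 0.348).

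In progenitor-like cells no member passed in edgeR against WT, with 5 at an unadjusted p under 0.05 in each edited genotype; 2.71% of 12031 genes passed in KO and 0.0166% in DeltaSP, and 20% and 14.3% had an unadjusted p under 0.05. In neuron-like cells 8 members were tested and none passed, with 3 at an unadjusted p under 0.05 in each genotype; 6.71% of 12667 genes passed in KO and 0.0395% in DeltaSP, and 27.2% and 17.4% had an unadjusted p under 0.05. The DESeq2 Wald test called 5 members in progenitor-like and 3 in neuron-like cells of DeltaSP, where it called 1.53% and 2.95% of all genes, and 0 and 1 in KO, where it called 6.19% and 10.7%. Between KO and DeltaSP no member passed in either class (4 and 2 at an unadjusted p under 0.05), where 0.0249% and 0.00789% of genes did and 5.33% and 6.36% had such an unadjusted p. DESeq2 called no member there, and 0.125% and 0.3% of genes. No member passed for the difference between the classes, with 3 at an unadjusted p under 0.05 for KO and 1 for DeltaSP, where 1.05% and 0.0152% of 13140 genes passed and 15.5% and 9.68% had such an unadjusted p.

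Type I interferon genes were close to absent: the 18 ligand genes together gave 2 and 0 UMIs in WT, 15 and 10 in DeltaSP, and 9 and 8 in KO. In the edited libraries, several defining markers of immune cells were at or near 0. Cells with 3 or more genes of the T lymphocyte or NK cell list numbered 0 in every library, and Cd4 was at 0 in all 4 edited libraries. The T lymphocyte list reached 2206 to 3034 UMIs in the edited libraries against 55 and 75 in WT. Cd2 made up 2626 of 2745 and 2894 of 3034 in DeltaSP, and 2126 of 2206 and 2369 of 2503 in KO. Cd3d, Cd3e, Cd3g and Cd8a were at or near 0, while Lck and Trac were detected in every edited library. In WT the list was led by Lck, with 48 and 69 UMIs, so that not all its genes were near 0. The macrophage and dendritic cell list was led by the interferon-induced Bst2. Bst2 made up 3224 of 3285 and 3129 of 3215 UMIs in DeltaSP, and 603 of 661 and 1344 of 1388 in KO. Tyrobp was at 0 in all 4 edited libraries, and other genes of the list held the rest. In WT 1, 6 cells held 3 or more of its genes, as did 1 of WT 2, 1 of DeltaSP 2 and none of the other libraries. At a clustering resolution of 1.2, 7 cells of WT 1 formed a cluster whose leading genes included Elane, S100a8 and Tyrobp. The B lymphocyte list gave 2 to 24 UMIs per library, and the neutrophil list 104 in WT 1 and 0 to 4 elsewhere.

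The members also differed in which other genes varied like them over 18 sums, 1 for each library and each of the progenitor-like, precursor-like and neuron-like classes. These sums share libraries and depth, and the values are descriptions. Among the genes most like Irf9 were Ifi27 (Pearson r = 0.92) and Usp18 (0.91), and among the members it was closest to Irf7 (0.90) and Ddx58 (0.84). Ifnar2 was most like Slc35b4 (0.95), Ppcdc and Zfp53, Ifnar1 most like Exd2 (0.91), Pdcd6ip and Abcb8, and the pair reached 0.60 with each other. Jak1 was most like Zfp316 (0.95), Meis1 and Ppp2r3a, Tyk2 most like Chid1 (0.95), Phyh and Rrp1, and Stat2 most like Thap7 (0.90), Ogfr and Apeh. Irf7, Ddx58 and Ifih1 averaged under 5 CPM, and no gene is named for them.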

How the data were processed

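Per the labels, the authors ran Cell Ranger 4.0 with the mm10 genome and the gene models of Ensembl release 93; they deposited the resulting UMI counts of each gene in each barcode without normalization. Per the labels, day 6 embryoid bodies of 2 clones per genotype were profiled; the kit is named V3 in one label and V3.1 in others. Deposited totals ran from 24191242 to 49061693 UMIs per library. Barcodes under 1000 genes or over 10% mitochondrial UMIs were dropped; no doublet caller was applied. Clustering (scanpy 1.11.5, Leiden resolution 0.6, 2000 variable genes, 30 components, 15 neighbours) left out the genes of the interferon lists, but other interferon-induced genes stayed in, and clusters were named from at least 3 markers.

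Sums of UMIs per library, over all cells or a class, were tested with edgeR 4.0.16 (R 4.3.3; TMM, filterByExpr, quasi-likelihood, Benjamini-Hochberg over all tested genes, threshold 0.05), with the 6 libraries in 1 fit. CPM over all cells are TMM-scaled, except that those of 5330434G04Rik, like those of classes and cell groups, are plain. The edgeR step was tested on simulated data. DESeq2 1.42.0 was an alternative, as were other filters, thinning, leaving out each library and a replicate block. A floor of 3 UMIs per library stands for a count of 0. Nothing says that the clones came from separate cultures, so the tests measure spread among libraries alone.

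The text names the 9 members, the genes of the other interferon and immune lists that passed in all cells or had the smallest p where none did, and the 3 genes most like each member of at least 5 CPM. Some list genes that did not pass are not printed, and Tubb3, Olig2 and 5330434G04Rik were named as checks of the cells and the edit. The members and lists were chosen with earlier results of these data known. Mx2 of the effector list has no row among those used here. Promoters came from RefSeq, GRCm38.p6, and all 9 members matched by symbol. A gene of the other lists is not reported here.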

Additional observations from a re-analysis of the deposited data

Results flagged for a closer look

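A signal lay outside the tested genes, in Ifna4, a type I interferon gene too low for the test. The 4 libraries of edited cells held 31 Ifna4 UMIs against 0 and 0 in WT. They numbered 8 and 8 in DeltaSP and 9 and 6 in KO, and lay in 5, 5, 2 and 2 cells. In KO 1, 8 of the 9 UMIs were in 1 cell. Ifnb1 gave 4 and 1 UMIs in DeltaSP and 0 in the other 4 libraries. Of the cells with any type I ligand UMI, 5 of 8 in DeltaSP 1, 7 of 7 in DeltaSP 2, 1 of 2 in KO 1 and 4 of 4 in KO 2 were effector cells. The cell with most ligand UMIs of each edited library was of the stress-like class and held 0, 1, 0 and 0 Irf7 UMIs, and the cell richest in Irf7 held no ligand UMI in any library. Interferon alpha genes are near-identical copies, so the assignment of these UMIs to Ifna4 is uncertain. The difference from WT was not tested.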

How the results depend on the processing

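Counts of members passing in edgeR were the least stable values. With no filter on low counts they were 5 in KO and 4 in DeltaSP against WT and 3 between KO and DeltaSP in all cells, where 3390, 1326 and 422 of 22804 genes passed, 6, 5 and 4 in progenitor-like cells (1472, 739 and 389 of 18750 genes), 1 and 3 against WT in neuron-like cells (1872 and 635 of 19933), and 1 for each difference between the classes (839 and 285 of 20907). With the DESeq2 Wald test they were 4 and 4 against WT in all cells (2382 and 604 of 14900 genes), 5 in progenitor-like cells of DeltaSP, and 1 and 3 in neuron-like cells. Without effector cells 0 passed in all cells of KO or DeltaSP, where 748 and 2 of 14608 genes did. With only the 4 libraries compared, 0 passed in KO over all cells (762 of 14482 genes did) and 3 in DeltaSP (42 of 14601). In neuron-like cells of DeltaSP that setting gave 1. A replicate block gave 0 in DeltaSP and 2 in KO over all cells, where 22 and 1014 of 14900 genes passed. It gave 1, Irf7, in neuron-like cells of each, where 1231 of 12667 genes passed in KO. Same-numbered libraries had deviations correlated at r = -0.0167, 0.137 and 0.0272, so the number is no pairing. Leaving out 1 library gave 0 to 2 in KO and 0 to 3 in DeltaSP over all cells, and 0 to 1 in neuron-like cells of each. Over all genes, the 1121 calls in KO became 15 or 3207 when WT 1 or WT 2 was left out and 33 or 4 when KO 1 or KO 2 was, and the 53 in DeltaSP became 3, 1106 without WT 1 and 2, and 1 and 4 without DeltaSP 1 and 2. The difference in effector-cell share from WT was 3.34 percentage points in KO and 9.91 in DeltaSP with 5 or more UMIs, and 1.46 and 5.52 after thinning; leaving out 1 library gave 2.50 to 8.49 and 11.01 to 16.6.

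Log2 differences that changed sign did so mostly near 0. Over all cells, leaving out 1 library gave -0.11 to 0.60 for Stat2 in KO against WT and -0.0449 to 0.18 for Ifnar1 between KO and DeltaSP, where Stat2 was at 0.0108 without effector cells. In progenitor-like cells of KO against WT the ranges were -0.14 to 0.44 for Ifnar1, -0.0633 to 0.18 for Jak1, -0.0369 to 1.59 for Irf9 and -0.20 to 2.95 for Ddx58, the lowest of the last pair without KO 2. In those of DeltaSP they were -0.16 to 0.42 for Ifnar1, -0.10 to 0.51 for Ifnar2 and -0.0693 to 0.18 for Jak1, which was at -0.0291 without effector cells. Between KO and DeltaSP they were -0.0932 to 0.12 for Ifnar1, with -0.0024 under the replicate block and -0.14 with thinned sums, and -0.0776 to 0.0799 for Jak1, with 0.0285 with thinned sums, 0.0845 without effector cells, 0.0117 at resolution 1.2 and 0.0057 with only the 4 libraries. In neuron-like cells they were -0.13 to 0.51 for Stat2 and -0.29 to 1.38 for Irf9 in KO, and -0.0615 to 0.38 for Ifnar2 and -0.10 to 0.10 for Tyk2 in DeltaSP. Tyk2 was also at 0.0035 with no filter, 0.0022 without effector cells and 0.13 at resolution 1.2. Between KO and DeltaSP Stat2 ranged from -0.42 to 0.23 and was at 0.0622 without effector cells. The causes were not tested. Irf7 and Ifih1 kept a positive difference from WT in every alternative that gave a value. Depth limits this pair in WT, where 8 UMIs at most per library carry the comparison.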

Other observations

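A small pluripotent- or germ-like class, with 8 and 9 cells in WT, 12 and 106 in DeltaSP and 59 and 50 in KO, had the largest shares of effector cells among the named classes of the edited libraries: 83.3% and 58.5% in DeltaSP and 50.8% and 35 of 50 cells in KO. In WT 2 the share was 44.4%, or 4 of 9 cells, with an exact 95% interval of 13.7% to 78.8%. Mesoderm-like cells came next in DeltaSP, with 53.8% and 38.6%, and had 6.59% and 33.3% in KO. Thinned to 3000 UMIs, germ-like cells had 41.7% and 22.9% in DeltaSP, 10.2% and 24.5% in KO; of the 2 and 9 WT cells deep enough, none qualified. In that class Ifih1 was at 22.3 and 8.72 CPM in DeltaSP and 9.81 and 11.1 in KO, from 4, 14, 9 and 9 UMIs, and at 0 in WT. Clusters were made without the genes of the interferon lists, though other interferon-induced genes were kept. The number of cells in this class varied widely between libraries, and no test was made.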
